A study of Mus musculus with 6 samples.

Results

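Hmgcs1, Mvk, Pmvk, Mvd and Fdps encode enzymes of the mevalonate pathway that act before squalene. They are 5 of the 22180 genes that could be read from the arrays, each was found by its symbol in the probe table of the array, and each has a single probe set. The genes were chosen by their diet differences in these same arrays, which were already known, so their counts and differences are a description and support nothing further. The animals were male C57BL/6J mice bought at 4 weeks of age. For 92 days they received a diet made high in fat with lard, whose dietary fiber came from flour of the β-glucan rich barley cultivar Beau Fiber in the BF group and from cellulose in the control group. The flour also took the place of part of the corn starch and a little of the lard, so the diets differed in more than fiber. Ileum, liver and epididymal adipose tissue were taken from the same 10 mice of each diet group. Their RNA was pooled for each organ and diet and run on 1 array. This gives 6 arrays with no replicates, so no error can be given for any value. What single mice contributed to a pool cannot be read from it.

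The mevalonate pathway builds the isoprene units from which cells make cholesterol, the side chain of ubiquinone, dolichol and the lipid anchors of prenylated proteins. Acetyl-CoA and acetoacetyl-CoA are joined to HMG-CoA, which is reduced to mevalonate, and mevalonate is phosphorylated and decarboxylated to isopentenyl diphosphate. Farnesyl diphosphate made from it is the branch point between sterols and the other isoprenoids. In the liver the genes of the pathway are known as targets of SREBP-2, a transcription factor that is released from the endoplasmic reticulum when its membrane is low in sterols.

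RefSeq's table of promoters (GRCm38.p6, each window 250 bases before to 50 bases after a gene start) matched Hmgcs1, Mvk, Pmvk and Mvd, 4 of the 5 genes. Their windows are shown because the 5 genes were lower together in the liver. Pmvk has 2 windows, of which the first is printed. Capitals mark matches on either strand to TCACNCCAC, a form of the sterol regulatory element, to CCAAT, the box bound by NF-Y, and to GGGCGG, the GC box bound by Sp1. None of these matches overlap in the windows printed.
Hmgcs1, chr13:119690101-119690400, plus strand: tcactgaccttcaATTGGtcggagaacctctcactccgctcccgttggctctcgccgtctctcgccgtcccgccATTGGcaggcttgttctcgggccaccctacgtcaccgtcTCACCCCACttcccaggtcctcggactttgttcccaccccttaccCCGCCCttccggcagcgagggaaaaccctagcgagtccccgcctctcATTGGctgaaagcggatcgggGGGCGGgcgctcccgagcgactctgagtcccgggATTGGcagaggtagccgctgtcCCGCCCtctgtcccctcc
Mvk, chr5:114444019-114444318, plus strand: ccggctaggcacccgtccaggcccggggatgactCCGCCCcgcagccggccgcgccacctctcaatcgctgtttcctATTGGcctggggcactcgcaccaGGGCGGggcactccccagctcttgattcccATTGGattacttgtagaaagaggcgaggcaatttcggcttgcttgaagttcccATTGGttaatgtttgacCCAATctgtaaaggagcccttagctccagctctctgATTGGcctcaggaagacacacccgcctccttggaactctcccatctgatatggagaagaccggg
Pmvk, chr3:89454291-89454590, plus strand: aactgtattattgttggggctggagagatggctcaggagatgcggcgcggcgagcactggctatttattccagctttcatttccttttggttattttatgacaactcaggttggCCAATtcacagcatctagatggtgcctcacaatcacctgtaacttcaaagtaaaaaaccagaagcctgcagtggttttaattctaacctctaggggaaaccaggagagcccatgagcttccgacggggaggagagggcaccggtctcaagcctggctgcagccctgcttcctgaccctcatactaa
Mvd, chr8:122443373-122443672, minus strand: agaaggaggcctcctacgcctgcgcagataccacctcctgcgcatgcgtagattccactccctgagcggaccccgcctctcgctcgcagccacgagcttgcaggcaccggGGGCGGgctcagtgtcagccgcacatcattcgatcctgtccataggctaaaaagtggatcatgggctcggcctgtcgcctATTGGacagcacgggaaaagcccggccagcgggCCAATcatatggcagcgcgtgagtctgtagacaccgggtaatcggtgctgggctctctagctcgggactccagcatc

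TCACNCCAC was found in the window of Hmgcs1, starting 137 bases before the gene start, and in none of the other windows of these genes. Of the 32851 windows of 300 bases in the table, 1.24% hold this motif. CCAAT was found 4 times in the window of Hmgcs1, 5 times in that of Mvk, 2 times in that of Mvd and 1 time in the first window of Pmvk. At least 1 match to it is in 37.4% of all windows. GGGCGG was found 3 times for Hmgcs1, 2 times for Mvk and 1 time for Mvd, and 35.7% of all windows hold at least 1 match. How many windows hold several matches was not counted. The second window of Pmvk, chr3:89459321-89459620, holds no match to CCAAT or GGGCGG. The windows follow annotated gene starts, so a missing match does not show that the promoter in use lacks the motif. Which of the 2 starts of Pmvk was used in these organs was not tested. CACGTG, an E-box that was also searched on both strands, was in none of these windows and is in 7.15% of all of them. Mvk lies head to head with Mmab, a gene of cobalamin metabolism, and 259 of the 300 bases of their windows are the same stretch. These matches describe letters in the windows and were not tested as binding sites.

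Expression was measured on the GeneChip Mouse Gene 2.0 ST, and each value is a log2 value from robust multichip analysis (RMA), which corrects the background, scales the arrays and summarizes the probes of a probe set. A difference is the BF value minus the control value of the same organ, and genes above 1.3 fold are called higher and those below 0.77 fold lower, the cutoffs used in the study. The median log2 value over all probe sets was 4.39 on the BF array and 4.42 on the control array of the ileum. It was 3.40 on either liver array, and 4.19 on the BF array and 4.17 on the control array of adipose tissue. All 12 enterocyte markers had a log2 value of at least 5 on both ileum arrays, as had all 9 hepatocyte markers analysed on the liver arrays and all 9 adipocyte markers analysed on the adipose arrays. For the BF sample of adipose tissue the source field names cellulose, while its description and its fiber label name barley, and it was read as BF. The labels call these samples adipocytes, while the methods describe epididymal fat tissue.

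In the liver, all 5 genes were lower in the BF group than in the control group, by 1.62-fold to 2.33-fold, and none was higher. Over all genes, 5.97% were lower and 6.11% were higher by the same thresholds. The median difference of the 5 genes was -1.08 on the log2 scale, against 0 over all genes. Hmgcs1, the cytosolic HMG-CoA synthase that condenses acetyl-CoA with acetoacetyl-CoA, had a log2 value of 9.30 in the BF liver and 10.52 in the control liver. The BF level was 42.9% of the control level, and Hmgcs1 stood at place 14 of 22180 genes counted from the lowest difference in this organ.

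Mvk, the mevalonate kinase, had a log2 value of 4.73 in the BF liver and 5.82 in the control liver. This is a 2.13-fold lower level, and Mvk was the only member with a log2 value below 5 on any array. Pmvk, the phosphomevalonate kinase that adds the next phosphate, had log2 values of 6.49 in the BF liver and 7.23 in the control liver, a 1.68-fold lower level. Mvd, the decarboxylase that forms isopentenyl diphosphate, had log2 values of 5.69 in the BF liver and 6.39 in the control liver. It was 1.62-fold lower, the smallest difference of the 5 genes in this organ. Fdps, the farnesyl diphosphate synthase, had log2 values of 8.09 in the BF liver and 9.17 in the control liver, and was 2.12-fold lower.

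Among the members, Hmgcs1, Mvk and Fdps had liver differences between -1.22 and -1.08, while Pmvk was at -0.75 and Mvd at -0.70. In the whole liver comparison, 33 genes had a difference below -1, and 3 of them were members. In the 7502 genes whose liver mean reached a log2 value of 5, the central 95% of the differences lay between -0.47 and 0.44, and all 5 genes lay below that range. In the same count from the lowest difference, Mvk was at place 25, Fdps at 27, Pmvk at 111 and Mvd at 158. In bulk tissue, fewer cells of a type and less RNA per cell cannot be told apart. The shares over all genes in the liver, 5.97% lower and 6.11% higher, stand beside the marker counts that follow. Of 9 hepatocyte markers none was lower in the BF liver and 1 was higher, the cytochrome P450 Cyp3a11, with a median difference of 0.04. Their summed level, taken back to the linear scale, was 35104 in the BF liver and 34948 in the control liver. Of 24 macrophage markers 1 was lower and 3 were higher, and their summed level was 2276 in the BF liver and 2137 in the control liver. The counts of both lists are too small to be set apart from the shares over all genes. Of the 3 higher macrophage markers, Lyz2 had log2 values of 8.01 in the BF liver and 6.85 in the control liver. Cd14 and Aif1 lay below 5 on both liver arrays. Of 9 adipocyte markers 3 were lower and none was higher, with a summed level of 542 in the BF liver and 689 in the control liver. These were Cidec, a lipid droplet protein, at -1.78, Pparg at -0.54 and Retn at -0.52. Retn, like Adipoq, Lep and Plin1, had log2 values below 4 on both liver arrays. The part of these cells in the differences of the 5 genes was not tested.

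**Figure D1:**
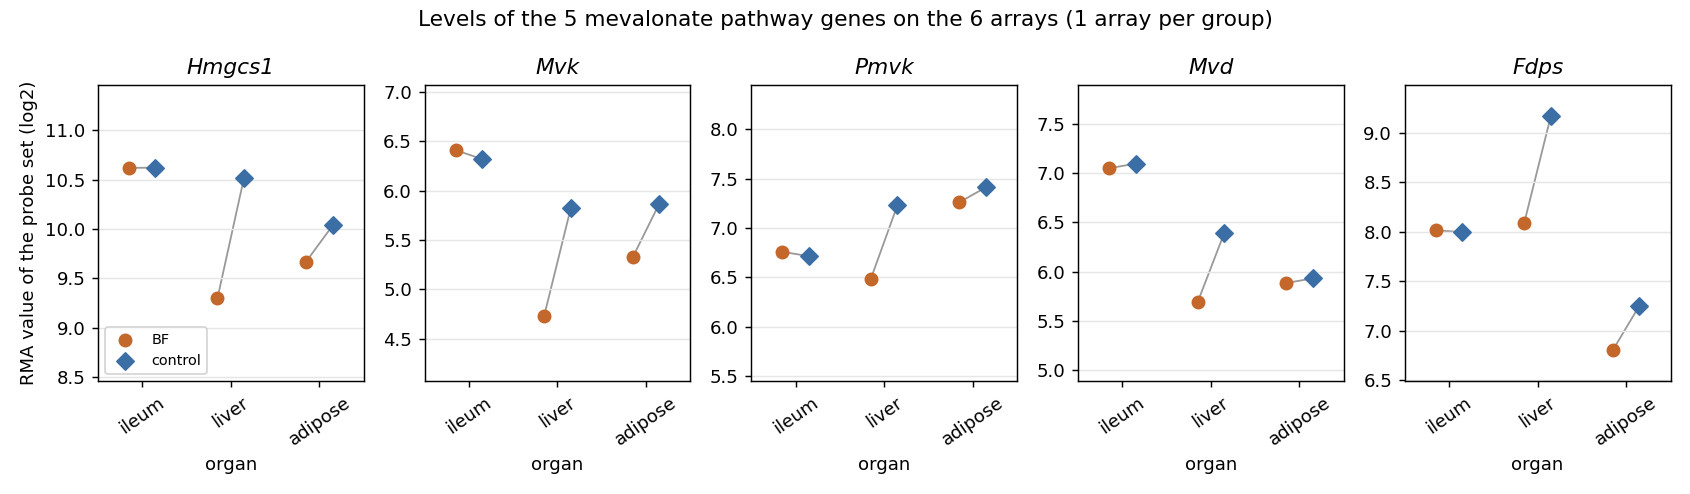
Log2 RMA value of each of the 5 genes (y axis, 3 log2 units high in every panel) on the BF array (circle) and the control array (diamond) of each organ (x axis). Each point is 1 array of pooled RNA, a line joins the 2 arrays of an organ, and there are no error bars because there are no replicates. The steepest line of every gene is that of the liver, such as 9.30 against 10.52 for Hmgcs1.

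In adipose tissue, 2 of the 5 genes were lower in the BF group, Mvk and Fdps, and none was higher. Over all genes, 6.16% were lower and 6.67% were higher. The median difference of the 5 genes was -0.37, against 0.01 over all genes. Mvk had log2 values of 5.33 in BF adipose tissue and 5.87 in control adipose tissue, a 1.46-fold lower level. Fdps had log2 values of 6.80 in BF adipose tissue and 7.25 in control adipose tissue, a 1.37-fold lower level. For Fdps the BF value was the lowest of the 6 arrays, and for Mvk only the BF liver was lower.

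Hmgcs1 had log2 values of 9.67 in BF adipose tissue and 10.03 in control adipose tissue. Its difference of -0.367 lay just short of the lower threshold, which is -0.377 on the log2 scale. Pmvk had log2 values of 7.26 in BF adipose tissue and 7.41 in control adipose tissue, and Mvd had 5.88 in the BF group and 5.93 in the control group. The differences of both, -0.15 for Pmvk and -0.05 for Mvd, lay between the thresholds. The central 95% of the differences was wider here, between -0.61 and 0.55 over the 9891 genes whose mean reached 5 there, and none of the 5 genes lay outside it. Pmvk and Mvd had the smallest differences of the 5 genes in both organs, while the largest was that of Hmgcs1 in the liver and that of Mvk in adipose tissue.

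Markers of other cells differed on the same pair of adipose arrays. There, 6.16% of all genes were lower and 6.67% were higher. Of 24 macrophage markers 20 were lower in BF adipose tissue and none was higher, with a median difference of -0.73 and a summed linear level of 7212 in the BF group and 11978 in the control group. Adgre1, which encodes F4/80, had log2 values of 7.63 in BF adipose tissue and 8.76 in control adipose tissue. Of 14 epididymis markers 9 were lower and none was higher, with a summed level of 163.0 in the BF group and 2217 in the control group, and none of them had a log2 value of at least 5 on the BF array. Endothelial markers were higher in 8 of 10 cases, with none lower. Of the 9 adipocyte markers none lay past a threshold, with a median difference of 0.11. The part of these cells in the differences of Mvk and Fdps was not tested.

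In the ileum, none of the 5 genes was lower and none was higher in the BF group. Over all genes, 3.88% were lower and 4.27% were higher. The median difference of the 5 genes was 0.02, and the differences lay between -0.05 for Mvd and 0.09 for Mvk. Hmgcs1 had a log2 value of 10.62 on both ileum arrays. Fdps had log2 values of 8.016 in the BF ileum and 7.997 in the control ileum. Mvk had 6.41 in the BF ileum and 6.32 in the control ileum. The arrays of both diets were thus nearly level for these genes. Pmvk had log2 values of 6.76 in the BF ileum and 6.71 in the control ileum, and Mvd had 7.05 in the BF ileum and 7.09 in the control ileum. The largest gap between the diets, that of Mvk, is 1.07-fold. On the same arrays 5 of 8 markers of B and plasma cells were higher in the BF ileum and 6 of 9 adipocyte markers were lower, while none of the 12 enterocyte markers lay past a threshold.

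**Figure D2:**
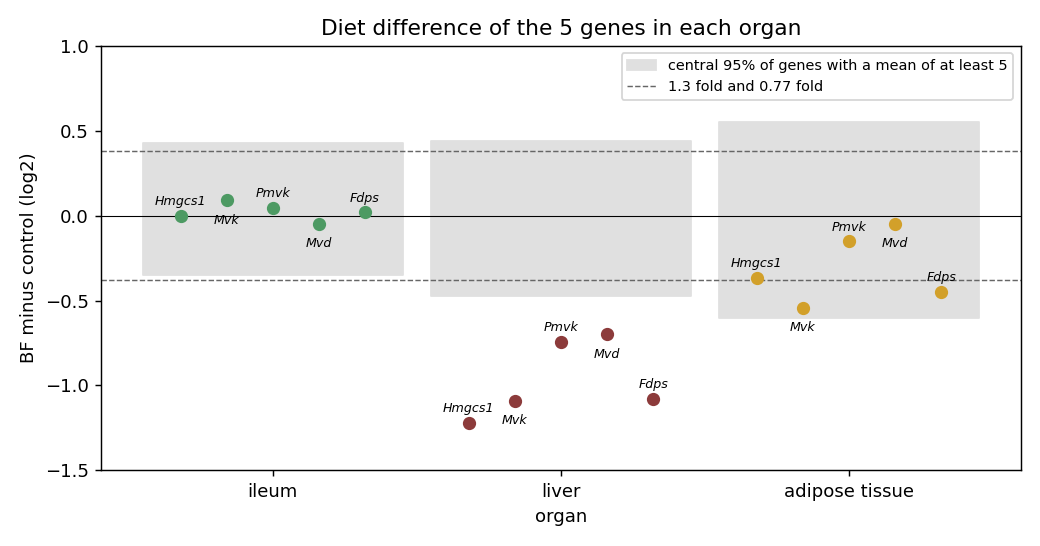
BF minus control on the log2 scale (y axis) for each of the 5 genes in each organ (x axis), 1 point per gene. Gray boxes span the central 95% of genes whose mean there reached 5 on the log2 scale, and dashed lines mark 1.3 and 0.77 fold, and the 5 liver points lie below the box, which ends at -0.47.

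The differences between the organs could not be tested, since each organ has 1 array per diet. Between the lowest and the highest difference of the 5 genes lay 0.52 log2 units in the liver and 0.50 in adipose tissue, but only 0.14 in the ileum. In the liver 0.712% of all genes had a difference at or below that of Mvd, the member nearest to 0. In adipose tissue 39.4% of all genes lay below Mvd, which was again the member nearest to 0. In the ileum 69.2% of all genes lay below Mvk, the highest member.

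**Figure D3:**
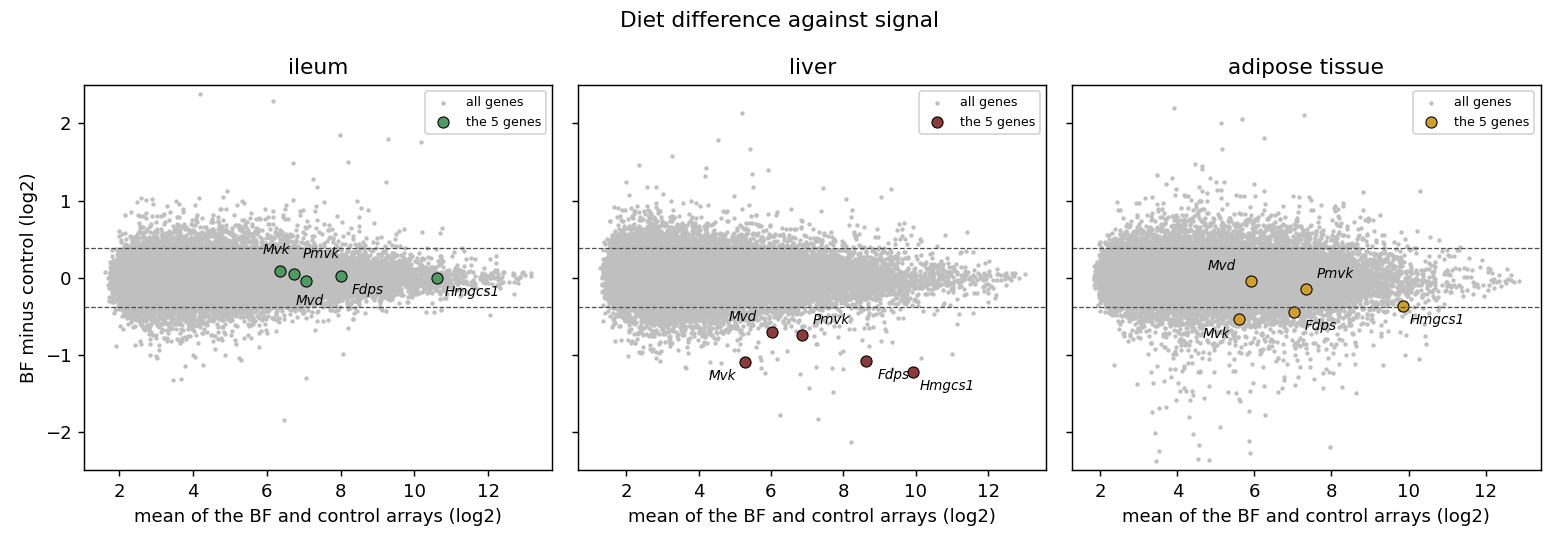
BF minus control (y axis, log2) against the mean of both arrays (x axis, log2) for all 22180 genes (gray) and the 5 genes (colored) in each organ, with dashed lines at 1.3 and 0.77 fold. The y axis is limited to 2.5 in each direction, which leaves out 1 gene of the ileum, 5 of the liver and 37 of adipose tissue, and the 5 liver points lie below the lower line, between -1.22 for Hmgcs1 and -0.70 for Mvd.

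The order of the organs differed between the diets in the deposited values. Each comparison here sets a probe set against itself on other arrays. In the BF group, 4 of the 5 genes had their lowest level in the liver, all but Fdps. In the control group, 1 gene had its lowest level there, Mvk, by 0.05 log2 units below adipose tissue. In the BF group, Hmgcs1 was 1.32 log2 units lower in the liver than in the ileum, and in the control group it was 0.10 lower. Fdps was 0.08 higher in the liver than in the ileum of the BF group, and 1.18 higher in the control group. Mvd was highest in the ileum under both diets, and Pmvk was highest in adipose tissue under both. Neighbors in these orders that lie within the thresholds, such as the liver and ileum levels of Fdps in the BF group, cannot be set apart. It is not stated which arrays were normalized together, and these orders changed with the scaling. After quantile normalization of the 6 arrays, the control level of all 5 genes was highest in the liver, and 1 gene of the BF group, Hmgcs1, was lowest there.

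The enzymes after farnesyl diphosphate were set beside the 5 genes from a list written with earlier results of these data known. Of the 11 genes from squalene to cholesterol that were analysed, 7 were lower in the BF liver and none was higher, with a median difference of -0.67. Of all genes, 5.97% were lower there. Sqle, the squalene epoxidase, had log2 values of 6.34 in the BF liver and 7.77 in the control liver, a difference of -1.44, beyond that of any of the 5 genes. The others were Dhcr7 at -1.19, Msmo1 at -0.98, Lss at -0.95, Nsdhl at -0.83, Cyp51 at -0.67 and Hsd17b7 at -0.63, which act on lanosterol and the sterols after it or, for Lss, form lanosterol. Lbr, which carries a sterol reductase domain beside its role at the nuclear membrane, had 6.10 on both liver arrays, and Ebp, a sterol isomerase, lay at -0.16. Sc5d at -0.33 and Tm7sf2 at -0.31 in the liver were nearer to the lower threshold without passing it. In adipose tissue the same 7 were lower, where 2 of the 5 genes before squalene were, and the median of the 11 was -0.47. The share of all genes lower there was 6.16%. As for Mvk and Fdps, the part of macrophages and epididymis in these adipose differences was not tested. Cyp51, the lanosterol demethylase, had the lowest difference of the 11 there, with log2 values of 5.94 in BF adipose tissue and 6.83 in control adipose tissue. The other lower genes were between -0.75 for Sqle and -0.41 for Nsdhl. In the ileum 1 of the 11 was lower, the sterol reductase gene Tm7sf2, at -0.53, against 3.88% of all genes.

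Fdft1 makes squalene from farnesyl diphosphate and so stands between both stretches. It had log2 values of 8.83 in the BF liver and 9.49 in the control liver, and was 1.59-fold lower. In adipose tissue its values were 7.40 in the BF group and 7.27 in the control group. The difference of 0.13 lay between the thresholds, while Fdps, the step before it, was lower there. Idi2, an isopentenyl diphosphate isomerase, lay between 2.76 and 4.55 on all 6 arrays and past no threshold. Other enzymes up to squalene were not analysed here. Without Idi2, the 5 genes, Fdft1 and the 11 genes after it made 17 analysed genes of the route. Of these, 13 were lower in the liver and 9 were lower in adipose tissue, but only 1 in the ileum. The 9 of adipose tissue were all among the 13 of the liver. Both organs came from the same mice, so they are not independent of each other.

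**Figure D4:**
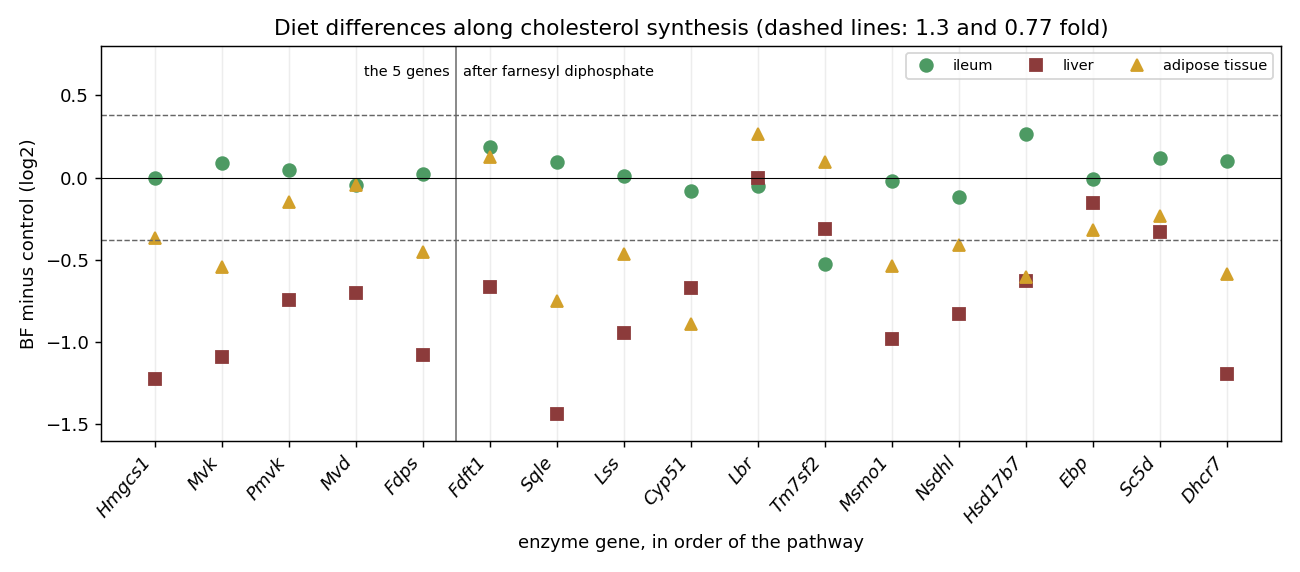
BF minus control (y axis, log2) for the 17 enzyme genes of cholesterol synthesis analysed, Idi2 left out, in the order of the pathway (x axis), with the ileum as circles, the liver as squares and adipose tissue as triangles, 1 value per gene and organ. Dashed lines mark 1.3 and 0.77 fold, and 13 of the 17 squares, 9 of the triangles and 1 circle lie below the lower line.

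A list of 14 genes covers the use of farnesyl diphosphate for products other than sterols. Of these none was lower in the BF liver and 1 was higher, with a median difference of 0.01. Of all genes, 5.97% were lower and 6.11% higher in this organ. Ggps1, which lengthens farnesyl to geranylgeranyl diphosphate, had log2 values of 5.51 in the BF liver and 5.16 in the control liver. Dhdds, which makes the dolichol chain, had 6.93 in the BF liver and 6.99 in the control liver. Coq2, which attaches the side chain of ubiquinone, had 5.94 in the BF liver and 5.93 in the control liver. In adipose tissue 2 of the 14 were lower, the prenyltransferase subunits Pggt1b (-0.43) and Rabggtb (-0.61), against 6.16% of all genes. In the ileum Rabggtb was the lower one and none was higher, where 3.88% of all genes were lower and 4.27% were higher. Counts this small cannot be set apart from the shares over all genes.

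Among 11 genes of sterol control and LDL uptake, 2 were lower in the BF liver and none was higher. Of all genes, 5.97% were lower in the liver and 6.16% in adipose tissue. Srebf2, which encodes SREBP-2, had log2 values of 6.94 in the BF liver and 7.56 in the control liver, and was 1.53-fold lower. Mbtps2, a protease that cuts SREBP proteins, had 4.08 in the BF liver and 4.46 in the control liver, a difference of -0.38 at low signal and near the threshold. Srebf1, the gene of the related factor of fatty acid synthesis, had 8.44 in the BF liver and 8.21 in the control liver, between the thresholds. In adipose tissue Srebf2 had 7.24 in the BF group and 7.13 in the control group, a difference of 0.10 that lay between the thresholds. Insig1, which holds SREBP proteins in the endoplasmic reticulum and is itself known as a target of theirs, was lower in BF adipose tissue, with 10.31 in the BF group and 10.76 in the control group. As the only gene of the list past a threshold there, it lost this call under either quantile normalization, which left 0 lower. None of the 11 lay past a threshold in the ileum, where Srebf2 had 8.91 in the BF group and 8.90 in the control group.

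Of 7 genes that supply acetyl-CoA or NADPH, 2 were lower in the BF liver and none was higher. Of all genes, 5.97% were lower there. Acss2, the cytosolic acetyl-CoA synthetase, had log2 values of 8.10 in the BF liver and 8.91 in the control liver. Pgd, an enzyme of the pentose phosphate pathway, had 7.11 in the BF liver and 7.59 in the control liver. Acly, the ATP citrate lyase, had 9.10 in the BF liver and 9.43 in the control liver, between the thresholds. None of the 7 lay past a threshold in adipose tissue or the ileum. Of 3 ketone body enzymes none lay past a threshold in the liver or the ileum. Bdh1 was lower in adipose tissue, with 3.71 in the BF group and 4.09 in the control group. These values are low, and 6.16% of all genes were lower in adipose tissue. Mmab, the head-to-head neighbor of Mvk, had 6.44 in the BF liver and 6.70 in the control liver, a difference of -0.26 where that of Mvk was -1.09.

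The 5 genes varied in how alike their whole profiles were. Each gene was centered on its own mean over the 6 arrays. The profile of Hmgcs1 had a Pearson correlation of 0.97 with the mean profile of the other members, Mvk 0.78, Mvd 0.75, Fdps 0.26 and Pmvk -0.12. The arrays share organs, so these 6 points are not independent and organ levels weigh on them. In the 3 diet differences alone, the root mean square distance from the mean of the members was between 0.10 for Fdps and 0.22 for Mvd. Among 6333 other genes whose mean over the 6 arrays reached 6, Lss, the lanosterol synthase, had the profile nearest to the mean of the 5 genes over the 6 arrays, at a root mean square distance of 0.16 log2 units and with r = 0.97. Next were Mrps5 (0.18), a protein of the mitochondrial ribosome, and Rmdn3, Gatc, Tmem176a, Golim4, Zfp617, Trub1, Irf9 and Cln3, at distances up to 0.23.

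By the 3 diet differences alone, 4 of the 10 nearest genes were in the pathway lists, namely Lss, Nsdhl and Msmo1 of the stretch from squalene to cholesterol and Acss2. How many of all the genes compared are in these lists was not counted. By the profile over the 6 arrays, 1 of the 10 nearest was in the stretch from squalene to cholesterol, Lss. The members and lists were chosen with these differences known, so these counts are a description and support nothing further. Msmo1, the sterol C4-methyl oxidase, had a difference of -0.98 in the liver and -0.54 in adipose tissue, with -0.02 in the ileum. For the mean of the 5 genes these differences were 0.02 for the ileum, -0.97 for the liver and -0.31 for adipose tissue. The nearest gene of all was Hivep2, at a distance of 0.08, before Lss at 0.09. The other nearest genes were Cxcl14, Pltp, Lgals1, Rdh11 and Got1. Pltp, the phospholipid transfer protein of plasma lipoproteins, had log2 values of 8.27 in the BF liver and 9.16 in the control liver. Rdh11, a retinol dehydrogenase, had 7.11 in the BF liver and 8.28 in the control liver.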

How the data were processed

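The authors pooled RNA from 10 mice for each organ and diet, hybridized each pool to 1 GeneChip Mouse Gene 2.0 ST array, and deposited log2 values made with robust multichip analysis at default parameters in Affymetrix Expression Console 1.3, as the submitters' processing notes name it. A genome build was not given in the sources used here. The 6 columns were matched to arrays by accession and to groups by their descriptions.

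Of 41345 probe sets, 23521 carry exactly 1 gene symbol in the probe table, and these stand for 22180 genes. For a gene with several probe sets, the one of highest mean was read. Differences were BF minus control within an organ, with thresholds of 1.3 and 0.77 fold and no filter on signal. As each group is 1 array, nothing was tested and no error was computed. Precision is limited by the number of arrays. Members and gene lists were chosen with earlier results of these data known. The rule for genes to name took the 5 members, members of a pathway list past a threshold at an organ mean of at least 5, those a count of 5 or fewer refers to, and, among genes with a mean of at least 6, the 10 nearest by profile and by differences. Cyp3a11, Lyz2, Cd14, Aif1, Cidec, Pparg, Retn, Adipoq, Lep, Plin1, Ggps1, Dhdds, Coq2, Lbr, Ebp, Sc5d, Srebf1, Acly, Idi2 and Adgre1 were named after their values were seen. Some genes of the lists were not analysed here. The calling of genes past a threshold was tested on simulated data, with 2 fold shifts in genes of log2 values of at least 6. Smaller shifts, and shifts at lower values, were not simulated. The alternatives were 2 ways of centering the differences, 2 quantile normalizations, thresholds of 1.5 and 2 fold, minimum log2 values of 5 and 6 on either array, and the mean of all probe sets of a gene. Python 3.11.15, numpy 2.4.6 and pandas 2.3.3 were used.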

Additional observations from a re-analysis of the deposited data

Results flagged for a closer look

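Rabggtb, a subunit of the enzyme that attaches geranylgeranyl groups to Rab proteins, was past opposite thresholds in different organs, with BF minus control at 0.45 on the log2 scale in the liver, but at -0.61 for adipose tissue and -1.85 for the ileum. The difference between the organs was not tested, since each is 1 array per diet. None of the 5 mevalonate pathway genes was past opposite thresholds.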

How the results depend on the processing

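All 5 genes were lower in the liver under every alternative at 1.3 and 0.77 fold except a minimum log2 value of 6, which leaves Mvk out, and at 1.5 fold, while 3 of them passed 2 fold. Their median difference in the liver was -0.96 after quantile normalization of the 6 arrays and -0.91 with a minimum of 6. In adipose tissue the count of 2 became 1 with a minimum of 6, and 0 at 1.5 fold and at 2 fold. In the ileum it stayed 0 throughout. Quantile normalization of the 6 arrays changed the number of members lowest in the liver to 1 in the BF group and 0 in the control group.

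At 1.5 fold, the lower genes from squalene to cholesterol were 3 in adipose tissue and 0 in the ileum, and at 2 fold they were 2 in the liver, with 0 in adipose tissue and 0 in the ileum. At 2 fold, 0 of the other enzymes up to squalene were lower in the liver. Of the isoprenoid genes, 0 were higher in the liver at 1.5 fold and at 2 fold, and 1 was lower in adipose tissue at 1.5 fold and 0 at 2 fold. The lower genes of sterol control in the liver were 1 after lowess centering, 1 after quantile normalization within the organ, 1 at 1.5 fold, 1 with a minimum of 5 and 1 with a minimum of 6, and 0 at 2 fold. In adipose tissue they were 0 after either quantile normalization, 0 at 1.5 fold and 0 at 2 fold. Of the acetyl-CoA and NADPH genes 1 was lower in the liver at 1.5 fold and 0 at 2 fold. Of the ketone body enzymes 0 were lower in adipose tissue at 1.5 fold, at 2 fold and with a minimum of 5 or 6. The cause of these changes was not tested beyond the settings themselves. No scaling moved the median of all genes by over 0.1.

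No paired analysis was possible because each diet has 1 array per organ and the labels give no replicate numbers, and no sample was left out for the same reason. The organs were not used as replicates of a diet. The number of arrays limits every value here, and the order of levels between organs also depends on the scaling.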
